A study of Gallus gallus with 2 samples.

Results

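In droplet-based single-cell RNA sequencing a barcode names the droplet a transcript came from, and a random tag on each captured molecule (the UMI) lets molecules be counted once. Barcodes with few detected genes are commonly removed by a limit on gene number. The barcodes described here were chosen by their number of detected genes, 200 to 1000, which a limit of more than 1000 genes removes. They numbered 1240 of 7157 in the HVP-labelled library (17.3%, 95% interval 16.5 to 18.2) and 1497 of 6981 in the Normal-labelled library (21.4%, 20.5 to 22.4). Together they were 2737 of 14138 barcodes, while 11330 barcodes had more than 1000 genes and 71 had fewer than 200. Both libraries came from the visceral peritoneum of Huiyang Bearded chickens aged 40 days, 10 birds per group, with hyperpigmented (HVP) or normal tissue. According to the methods of the study, the tissue was digested with collagenase and the suspension was sieved and passed through a lysis step for erythrocytes. The birds of a group form 1 library and cannot be told apart, so no test was made, and the libraries are described side by side.

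The names of each library's own files give the opposite group to its title. The libraries are therefore called by their titles throughout, as the HVP-labelled and the Normal-labelled library, and no direction between the groups is drawn. They shared 14 barcode sequences, of which 0 had 200 to 1000 genes in both. Because the number of genes in these same counts selected the barcodes, every value below is a description. The 95% intervals are exact binomial for shares and conditional binomial for ratios. They cover counting error only, not the spread between cells or birds.

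Cells differ in how much RNA they hold. Resting leukocytes and the nucleated red blood cells of birds are small cells with little RNA, while fibroblasts that secrete collagen hold much. Mitochondrial transcripts, which lie inside the organelle, are known to remain when cytoplasmic RNA leaks from a damaged cell, but their share also differs between healthy cell types. A barcode with few genes can thus be a small cell, a damaged cell, or a droplet sampled at low depth, and these cannot be told apart from the gene number.

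The barcodes under the limit were shallow but nearly as varied per UMI as the others. Their median depth was 1300 UMIs (range 500 to 4664) in the HVP-labelled library and 1257 UMIs (501 to 3434) in the Normal-labelled library, against 5345 and 3818 UMIs above the limit. They held 4.54% and 7.11% of all UMIs. The median number of genes was 703 and 714. When every barcode was thinned to 500 UMIs, the median was 329 genes under and 349 genes above the limit in the HVP-labelled library, and 350 and 354 genes in the Normal-labelled library. At equal depth the medians were thus close to each other.

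Mitochondrial genes took a larger share of UMIs under the limit than above it. The 13 genes with an MT- symbol, which encode subunits of the respiratory chain and of ATP synthase, made up 18.0% of the summed UMIs under the limit and 5.32% above it in the HVP-labelled library. In the Normal-labelled library these shares were 12.6% and 5.40%. The median over barcodes was 15.1% (25th to 75th percentile 7.90 to 24.5) and 8.50% (4.55 to 15.2), against 4.26% and 4.15% above the limit. The ranges overlapped, from 0% to 86.4% and from 0% to 82.2% under the limit and up to 56.1% and 46.1% above it. More than 10% mitochondrial UMIs were found in 65.2% and 43.2% of the barcodes under the limit and in 13.9% and 11.3% of those above. Over 50% was rare, with 36 and 31 barcodes under the limit and 3 and 0 above.

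The share declined with the number of genes and did not step at the limit. Barcodes with 200 to under 400 genes (126 and 104) had 38.8% and 27.4% of their summed UMIs in mitochondrial genes. From 400 to under 600 genes it was 20.6% and 16.7%, and from 800 to 1000 genes 14.5% and 10.0%. Just inside the limit, with over 900 and up to 1000 genes, the median was 11.1% (193 barcodes) and 7.09% (312 barcodes). Just outside it, with over 1000 and up to 1100 genes, it was 10.9% (202 barcodes) and 5.77% (378 barcodes). The 2 sides of the limit thus differed little beside the fall over the range below it.

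**Figure D1:**
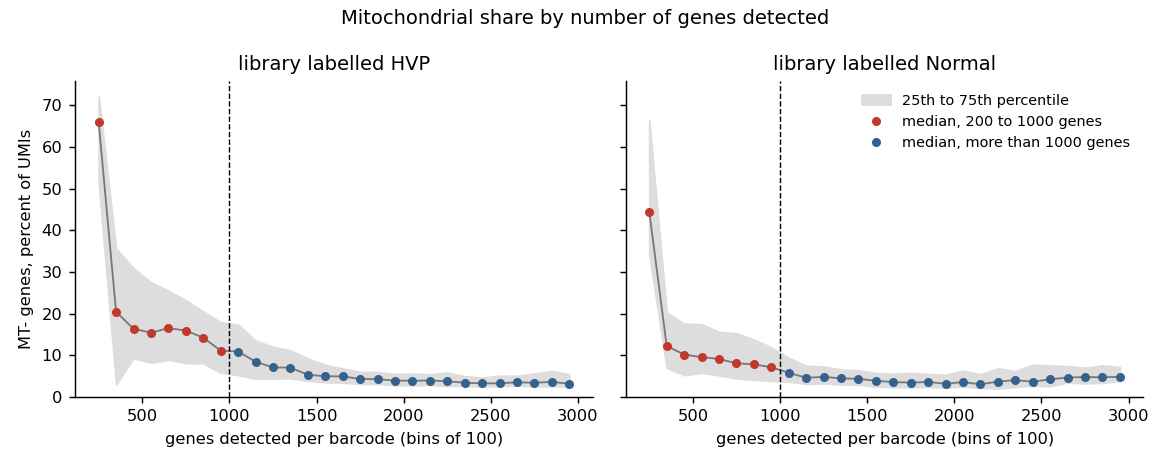
Mitochondrial share of UMIs (percent, vertical axis) in bins of 100 detected genes (horizontal axis) for each library. Points are medians over barcodes, the grey band spans the 25th to 75th percentile, and the dashed line marks 1000 genes. The medians fall from 66.1% and 44.5% in the first bin, which holds 20 and 13 barcodes, and pass the limit without a step.

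Each of the 13 mitochondrial genes was at least 2-fold higher under the limit in both libraries, where 4.58% of 12807 genes with at least 50 UMIs in each library were. The ratios of UMI shares lay in a narrow range, from 2.95 for *MT-CYTB* to 4.00 for *MT-ND3* in the HVP-labelled library and from 2.15 for *MT-CYTB* to 2.50 for *MT-COX1* in the Normal-labelled library. *MT-COX1*, a subunit of cytochrome c oxidase, had 34188 counts per 1000000 UMIs (CPM) under the limit and 8632 CPM above it in the former, and 21701 and 8691 CPM in the latter. The 76 nuclear genes of oxidative phosphorylation did not share this difference. They made up 0.859% of UMIs under and 0.972% above the limit in the HVP-labelled library (ratio 0.883, interval 0.868 to 0.898) and 0.807% and 1.09% in the Normal-labelled library (0.741, 0.729 to 0.753). These shares are of all UMIs, so the larger mitochondrial share under the limit by itself lowers them. Their ratios without mitochondrial UMIs were not computed.

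Depth was set more alike by taking barcodes with 1000 to under 2000 UMIs. The mitochondrial share of summed UMIs was then 16.9% in 783 barcodes under the limit and 10.2% in 80 above it (HVP), and 11.8% in 904 and 6.89% in 189 (Normal). Within this window the barcodes under the limit still had fewer UMIs, with medians of 1445 against 1912.5 and 1456.5 against 1880. The part of depth in the remaining difference was not tested.

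Cell classes were then read from the UMIs of marker genes. A barcode entered a class when at least 2 markers of the class had a UMI, with at least 3 marker UMIs in all, and when the markers took at least 3 times their share of the library's UMIs without mitochondrial genes. Barcodes that met the rule for more than 1 class were called mixed (28 and 5 under the limit, 11 of the former leukocyte and endothelial), and those that met none unassigned. Leukocytes were 18.9% of the barcodes under the limit in the HVP-labelled library (234 barcodes, 16.7 to 21.2) and 17.2% in the Normal-labelled library (258 barcodes, 15.4 to 19.2). Above the limit they were 2.74% (161) and 3.77% (206). Most leukocyte barcodes of each library therefore lay under the limit, 59.2% (54.2 to 64.1) and 55.6% (51.0 to 60.2). Red blood cells were 1.85% and 1.54% under the limit (23 barcodes each) and 2 and 3 barcodes above it. Endothelial barcodes were 42.5% (527 barcodes, 39.7 to 45.3) and 20.5% (307 barcodes, 18.5 to 22.6), against 16.3% and 14.0% above the limit.

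Several other classes were less frequent under the limit than above it. Mural cells, the pericytes and smooth muscle cells of vessel walls, were 2.18% and 6.28% under the limit and 12.5% and 15.1% above it. Schwann cells of the peripheral nerves were 0.161% and 0.134% under the limit (2 barcodes each) and 2.32% and 1.68% above it. Thinned to 500 UMIs, Schwann shares were 0.0806% (0.00204 to 0.448) under and 0.494% (0.331 to 0.709) above the limit in the HVP-labelled library. In the Normal-labelled library they were 0.0668% (0.00169 to 0.372) and 0.311% (0.181 to 0.498). The difference was smaller at equal depth, with intervals that overlap in both libraries. Mesothelial cells, which line the labelled tissue, were 0.403% (5 barcodes, 0.131 to 0.938) under the limit and 1.99% (117 barcodes, 1.65 to 2.39) above it in the HVP-labelled library. In the Normal-labelled library they were 0.735% (11 barcodes, 0.367 to 1.31) and 1.23% (67 barcodes, 0.952 to 1.55), with intervals that overlap. Thinned to 500 UMIs, mesothelial shares in the HVP-labelled library were 0.0806% (1 barcode, 0.00204 to 0.448) under and 0.188% (11 barcodes, 0.0936 to 0.335) above the limit. In the Normal-labelled library they were 0.267% (4 barcodes, 0.0728 to 0.683) and 0.110% (6 barcodes, 0.0403 to 0.239). On these few barcodes the intervals overlap in both libraries, so no direction is drawn at equal depth. *WT1*, a transcription factor of the mesothelium, stood at ratios of 0.480 (0.335 to 0.667) and 0.539 (0.408 to 0.699), on 36 and 59 UMIs under the limit. Melanocytes were close to even, at 1.29% and 1.47% under and 1.50% and 1.24% above. Most UMIs of their markers under the limit were of *MITF*, 712 of 931 and 685 of 1058. Leukocyte barcodes held 418 and 319 of the marker UMIs. In the clustering described below, 18 of the 22 melanocyte calls in the Normal-labelled library fell in a melanocyte-like cluster and 3 in a leukocyte-like one. Fibroblasts or tenocytes were 0.968% and 4.01% under and 2.27% and 9.44% above. Their markers, the collagens among them, took 7.71% and 4.98% of all UMIs without mitochondrial genes, so that a barcode had to reach 23.1% and 14.9% to enter the class. Barcodes with fibroblast genes below that level counted as unassigned. The unassigned were 29.1% and 46.8% of the barcodes under the limit and 57.1% and 51.1% above it. In the unassigned, collagens and related markers had a median of 0.465% and 0.163% of UMIs under the limit and 7.90% and 3.04% above it.

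**Figure D2:**
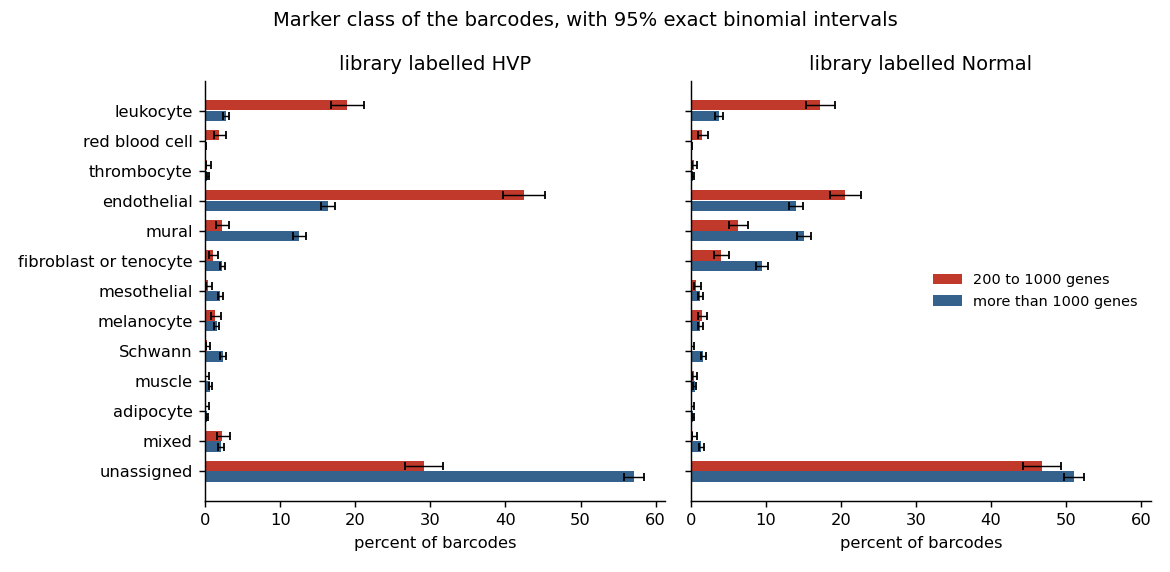
Percent of barcodes (horizontal axis) in each marker class (vertical axis), under the limit (red) and above it (blue), with 95% exact binomial intervals. Leukocyte bars stand at 18.9% and 17.2% under the limit and at 2.74% and 3.77% above it, while mural and fibroblast bars are longer above the limit.

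Endothelial shares depended on the class limits. With at least 5 times the library's share in place of 3 times, they were 21.9% and 4.41% under the limit and 9.73% and 2.03% above it. The required level was set by each library's own marker share, so the endothelial shares of the libraries rest on unequal limits. Blood endothelial markers took 0.212% and 0.351% of UMIs above the limit and 0.504% and 0.418% under it. Thinned to 500 UMIs, barcodes under the limit with a UMI were 36.3% and 31.9% for the marker *PECAM1*. For *VWF* they were 32.1% and 25.5%, and for *CDH5* 10.3% and 8.35%. Of the endothelial barcodes under the limit, 186 of 527 and 201 of 307 lay near the limits of the rule, with exactly 2 markers, exactly 3 UMIs or under 1.5 times the required fold. For leukocytes these were 26 of 234 and 103 of 258. The stricter fold gave leukocyte shares of 18.0% and 9.02% under and 2.57% and 1.90% above the limit. Of the red blood cell barcodes under the limit, 0 and 1 lay near the limits, and of the fibroblasts or tenocytes 10 of 12 and 48 of 60.

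Markers of macrophages and T cells took larger shares of UMIs under the limit. *PTPRC* (chromosome 8, 2035004 to 2116225 in GRCg7b), the CD45 phosphatase of all leukocytes, had 257 CPM under the limit and 28.7 CPM above it in the HVP-labelled library (ratio 8.96, interval 7.97 to 10.0). In the Normal-labelled library it had 374 and 61.1 CPM (6.13, 5.60 to 6.70). *SPI1*, a transcription factor of myeloid cells, stood at ratios of 15.4 (12.4 to 18.9) and 8.48 (6.88 to 10.4). *C1QB*, a chain of complement C1q made by macrophages, stood at 13.3 (10.5 to 16.7) and 6.91 (5.76 to 8.28). *CD3E*, a chain of the T cell receptor complex, stood at 6.29 (4.28 to 9.06) and 4.00 (3.17 to 5.02). These genes were higher under the limit in both libraries, with intervals above 1.

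Of the markers with at least 50 UMIs in a library, at least 2-fold higher shares were found in the HVP-labelled library for 9 of 10 general leukocyte, 11 of 13 myeloid and 9 of 9 T cell genes. This compares with 9.89% of all genes tested there. In the Normal-labelled library they were 8 of 10, 10 of 12 and 10 of 12, where 6.26% of all genes were. The general marker that did not reach this fold in either library was *ARHGDIB*, at 0.642 (0.515 to 0.791) and 0.851 (0.719 to 1.00). Neither did *RAC2*, a small GTPase of blood cells, in the Normal-labelled library, at 1.52. B cell markers went the other way as a sum, at 0.293 and 0.0992. Of those with at least 50 UMIs, 1 of 4 was at least 2-fold higher and 2 of 4 lower in the HVP-labelled library, and 1 of 5 higher and 3 of 5 lower in the Normal-labelled library. Most UMIs of the list were of *IGLL1*. This gene, annotated as an immunoglobulin light chain-like gene, had 6891 UMIs above the limit in the HVP-labelled library and 34196 in the Normal-labelled library, and 10 barcodes held 97.0% and 97.6% of them. Under the limit it had 65 and 185 UMIs. *MZB1* and *JCHAIN*, genes of plasma cells, stood at 0.0996 (0.0205 to 0.293) and 0.644 (0.479 to 0.849) in the Normal-labelled library, and *POU2AF1*, a coactivator of B cells, at 0.477 (0.0965 to 1.44). In the HVP-labelled library *MZB1* had 0 UMIs under and 63 above the limit, and *JCHAIN* stood at 0.667 (0.352 to 1.15). There *POU2AF1* stood above 1, at 1.95 (0.509 to 5.37), on 4 UMIs under the limit. *BANK1*, a B cell scaffold protein, was instead higher under the limit, at 6.15 (3.64 to 10.0) and 3.47 (2.14 to 5.44).

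By their type markers, 145 of 234 leukocytes under the limit were myeloid (62.0%, 55.4 to 68.2), 38 were T cells and 3 were B cells in the HVP-labelled library, and 48 had under 2 markers of any type. The corresponding numbers in the Normal-labelled library were 131 of 258 (50.8%, 44.5 to 57.0), 97, 4 and 26. Under the limit, T cells were 16.2% (11.8 to 21.6) and 37.6% (31.7 to 43.8) of the leukocytes. Above it they were 38.5% (31 to 46.5) and 45.6% (38.7 to 52.7), and the intervals overlap in the Normal-labelled library. Leukocytes with under 2 markers of any type were 20.5% and 10.1% under the limit and 6.21% and 1.46% above it. Their median depths were 1122.5 and 1128.5 UMIs under it and 2762 and 2653 above, and the part of depth was not tested. Within leukocytes, T cell markers stood at 0.66 (0.575 to 0.754) and 1.04, the latter with an interval that includes 1.

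After thinning to 500 UMIs, a *PTPRC* UMI was found in 9.27% of the barcodes under the limit and 1.65% of those above it in the HVP-labelled library, and in 12.7% and 2.53% in the Normal-labelled library. Without thinning these shares were 13.5% and 3.87%, and 17.7% and 6.20%. Endothelial cells should lack *PTPRC*. In those under the limit it was found in 0 of 527 thinned barcodes (median depth 1307 UMIs), which by 3 counts of the total allows a share of up to 0.569% (exact binomial upper bound 0.698%), and in 1.30% of 307 (1215 UMIs). *PTPRC* is itself 1 of the leukocyte markers, and barcodes that met the leukocyte and the endothelial rule were called mixed, so this background is partly set by the class rule. The same holds for *HBBA*, a red blood cell marker.

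Under the limit in the Normal-labelled library, 1 barcode held many UMIs of the granule genes of heterophils, the avian counterpart of neutrophils. It had 706 UMIs from 317 genes, and 341 of these UMIs (48.3%) came from 9 genes chosen after the values were seen. They were 110 UMIs of *S100A12*, a calcium-binding protein, 67 of *AvBD1*, 45 of *AvBD7*, 16 of *DEFB4A* and 6 of *AvBD6*, which encode defensins, 28, 24 and 15 of the cathelicidins *CATH3*, *CATH2* and *CATH1*, and 30 of *LECT2*. It held all 67 *AvBD1* UMIs found under the limit in that library, against 1 UMI above it. Its mitochondrial share was 1.27%. At least 10 UMIs of the 9 genes were found in 14 barcodes of that library, of which 4 were under the limit, and *S100A12* had 815 UMIs in 27 barcodes above it. *CATH3* was spread more widely, with 776 UMIs in 542 barcodes above the limit there and 1776 in 1104 in the HVP-labelled library. By the type markers, 0 leukocytes under the limit and 2 above it were called heterophils in the Normal-labelled library. Of the 12 heterophil type markers, 5 were present by symbol, and the cathelicidins of the list were not among them. The barcode described here was called leukocyte but not heterophil, so these numbers do not count the heterophils. In the HVP-labelled library, *AvBD1* had 0 UMIs in either group of barcodes, and the barcode richest in these 9 genes had 35 such UMIs, all of *S100A12*, among 4361.

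Red blood cell barcodes lay mostly under the limit, 92% and 88.5% of them, and had low median mitochondrial shares. By the looser limit of at least 3 globin UMIs alone, which was chosen after seeing the data, the shares of barcodes were 1.94% and 1.60% under the limit and 0.170% and 0.403% above it. Their globin genes *HBA1* (ENSGALG00010019732, chromosome 14, 12118602 to 12119420 in GRCg7b), *HBAD* (chromosome 14, 12115577 to 12116504) and *HBBA* (chromosome 1, 196004356 to 196005887) encode the chains of hemoglobin. In the 23 barcodes of the HVP-labelled library, globins took a median of 13.5% of UMIs (range 2.46 to 63.9), and in the 23 of the Normal-labelled library 11.0% (0.313 to 41.9). These barcodes were shallow, with medians of 970 and 733 UMIs and of 455 and 431 genes. Their median mitochondrial share was 0.150% and 0.278%, against 9.20% and 6.79% in the leukocytes under the limit. In the HVP-labelled library the highest of these barcodes stood at 1.70%, while in the Normal-labelled library it stood at 51.4%. In the clustering described below, all 23 of the HVP-labelled library fell in a red blood cell-like cluster. Of the 23 in the Normal-labelled library, 19 did so, with a median mitochondrial share of 0.170%. Another 3 fell in the fibroblast- or tenocyte-like cluster and 1 in the endothelial-like cluster. Not all 23 calls there thus grouped as red blood cells.

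In the Normal-labelled library, 1 barcode above the limit held most of the globin UMIs. *HBBA* had 5844 UMIs under the limit and 141 above it in the HVP-labelled library, and 1569 and 9571 in the Normal-labelled library. The red blood cell barcodes under the limit held 96.7% of all globin UMIs in the former but 14.4% in the latter. There, a barcode with 29207 UMIs from 2923 genes, which met the rule for more than 1 class, held 16249 globin UMIs, 55.6% of its own. The ratio of the red blood cell markers under over above the limit was 388 (358 to 422) in the HVP-labelled library and 2.21 (2.13 to 2.29) in the Normal-labelled library. Without the richest barcode above the limit, it was 457 (418 to 500.3) and 17.5 (16.6 to 18.5). Among the barcodes under the limit outside the red blood cell class, 1 in each library had at least 3 globin UMIs. A thinned *HBBA* UMI was found in 2.26% and 2.07% of all barcodes under the limit (2.90% and 3.14% unthinned) and in 0.380% and 0.326% of endothelial ones, whose median depths were 1307 and 1215 UMIs.

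By the rule of 3 times the library's share, endothelial cells were the largest named class under the limit in both libraries. At 5 times they were 4.41% in the Normal-labelled library, against 9.02% leukocytes. Of the named classes with at least 20 barcodes there in each library, endothelial cells also had the highest median mitochondrial share. The smaller mesothelial class stood at 10.3% (5 barcodes) and 14.1% (11 barcodes), the latter close to the endothelial 13.9% of that library. *VWF* (chromosome 1, 74643818 to 74782490), the von Willebrand factor of vessel linings, had 1210 CPM under and 510 CPM above the limit in the HVP-labelled library (ratio 2.37, 2.26 to 2.48) and 960 and 779 CPM in the Normal-labelled library (1.23, 1.17 to 1.29). *PECAM1*, an adhesion molecule of endothelial junctions, stood at 1.95 (1.86 to 2.04) and 1.11 (1.07 to 1.16). *EMCN*, a sialomucin of capillaries and veins, stood at 3.93 (3.64 to 4.24) and 1.74 (1.59 to 1.90), and *ECSCR*, an endothelial surface protein, at 4.25 (3.81 to 4.73) and 2.33 (2.03 to 2.66). *CA4*, a carbonic anhydrase of capillary endothelium, stood at 4.38 (3.77 to 5.07) and 0.999 (0.808 to 1.22). Of 19 blood endothelial markers, 12 were at least 2-fold higher under the limit in the HVP-labelled library (all genes, 9.89%) and 1 in the Normal-labelled library (all genes, 6.26%). As a sum the markers stood at 2.38 and 1.19. The lymphatic markers stood at 1.02 (0.878 to 1.18) and 1.19 (1.04 to 1.35).

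**Figure D3:**
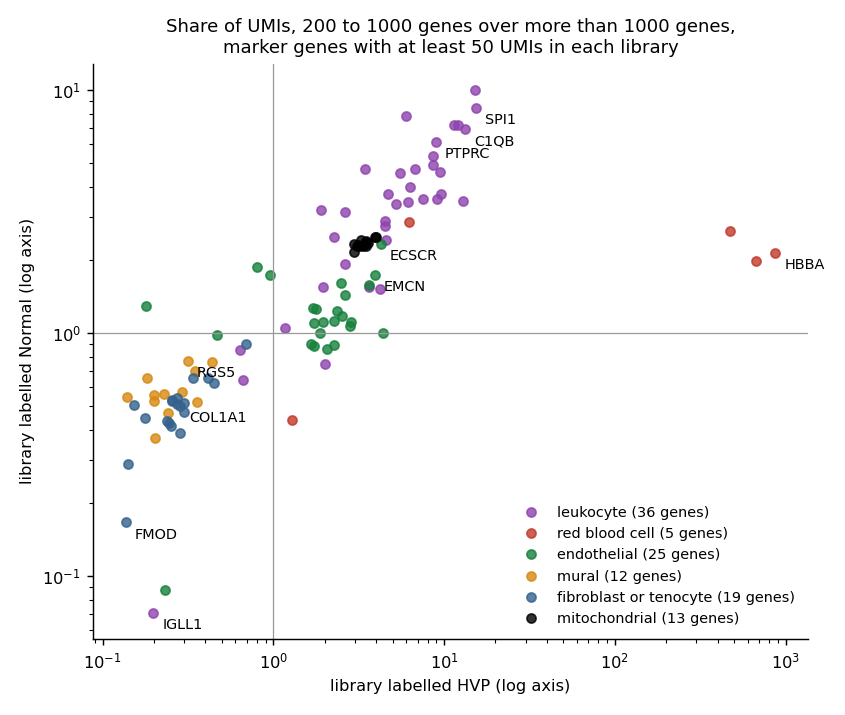
Share of UMIs under the limit over that above it, for each marker gene with at least 50 UMIs in each library, in the HVP-labelled library (horizontal axis) and the Normal-labelled library (vertical axis), both log axes. Most leukocyte and all mitochondrial genes lie at the upper right, the mural and fibroblast genes at the lower left, and *HBBA* lies far right, at 869 and 2.14.

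Median mitochondrial shares were higher under the limit within most classes too, but not in red blood cells, thrombocytes and muscle cells. In endothelial barcodes the median was 21.8% (25th to 75th percentile 15.5 to 29.4) under and 10.0% (6.53 to 14.4) above the limit in the HVP-labelled library, and 13.9% (7.51 to 21.6) and 6.44% (4.33 to 10.3) in the Normal-labelled library. Leukocytes had 9.20% (7.17 to 12.3) under and 5.77% (4.04 to 8.82) above, and 6.79% (4.47 to 9.61) and 4.78% (3.59 to 7.07). The leukocyte quartiles overlapped in both libraries, and the endothelial ones did so in the Normal-labelled library. In the unassigned the medians were 12.4% and 3.41%, and 9.12% and 3.58%. Red blood cells went the other way, on few barcodes above the limit. Their medians were 0.150% under (23 barcodes) and 3.94% above (2), and 0.278% (23) and 6.64% (3). Thrombocytes stood at 2.67% and 3.63%, and at 1.57% and 5.19%, on 3 and 6 barcodes under the limit. Muscle cells stood at 0.459% and 3.87%, and at 0.640% and 3.15%, on 1 and 6. Among barcodes with 1000 to under 2000 UMIs, endothelial medians were 21.0% under and 13.6% above the limit (363 and 41 barcodes), and 13.4% and 7.29% (192 and 53). Those of leukocytes were 8.52% and 5.23% (141 and 13 barcodes), and 6.24% and 4.61% (146 and 36). In this window the differences are partly set by the selection on gene number, within classes too.

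**Figure D4:**
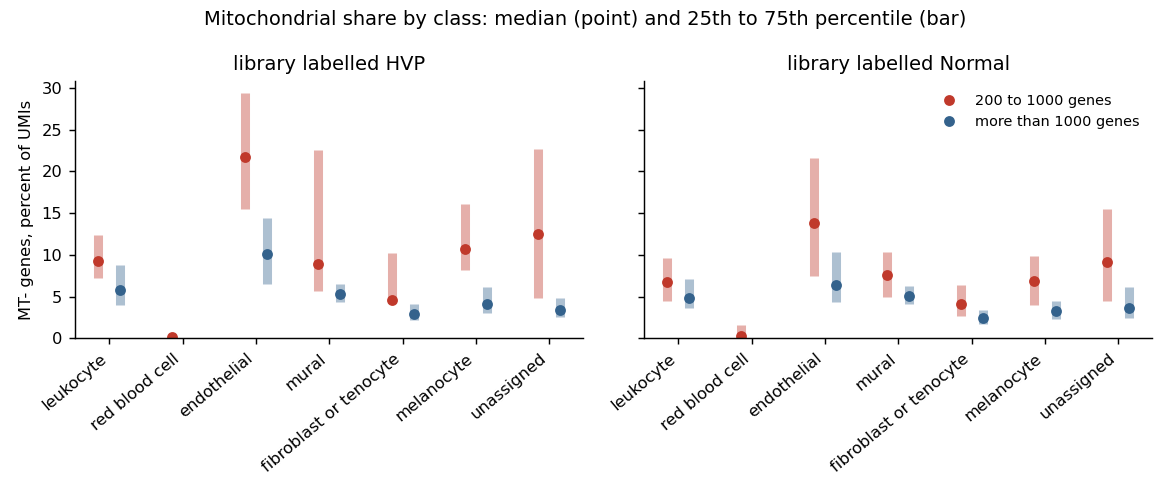
Mitochondrial share of UMIs (percent, vertical axis) by marker class, under the limit (red) and above it (blue). Points are medians over barcodes and bars span the 25th to 75th percentile, and groups of fewer than 5 barcodes, the red blood cells above the limit, are left out. Among the classes drawn, endothelial barcodes under the limit stand highest, at 21.8% and 13.9%, and red blood cells lowest, at 0.150% and 0.278%. The mesothelial class, at 10.3% and 14.1% on 5 and 11 barcodes under the limit, is not drawn.

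Over all 12807 genes with at least 50 UMIs in each library, 586 were at least 2-fold higher (4.58%) and 557 at least 2-fold lower (4.35%) under the limit in both libraries. The median gene stood at -0.12 and -0.03 on the log2 scale, so in the HVP-labelled library single ratios are to be read against a centre slightly below 1. Without the barcodes called leukocyte or red blood cell, 272 genes were higher and 423 lower, of 12568. Among barcodes with 1000 to under 2000 UMIs, 27 were higher and 5 lower, of 4053 genes.

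By the ranking on the interval bound nearest 1, 3 of the 10 highest genes carry a symbol. *IL8L1* (chromosome 4, 50430778 to 50434071), a chemokine of the interleukin-8 family, had 575 CPM under and 28.1 CPM above the limit in the HVP-labelled library (20.5, 18.7 to 22.4) and 390.0 and 38.5 CPM in the Normal-labelled library (10.1, 9.20 to 11.2). *IL2RA*, a chain of the interleukin-2 receptor, stood at 21.3 (16.4 to 27.7) and 9.59 (7.44 to 12.3), and *STAT4*, a transcription factor of T and natural killer cells, at 10.9 (9.06 to 13.0) and 8.37 (7.40 to 9.45). An *IL8L1* UMI was found after thinning in 7.82% and 6.55% of the barcodes under the limit (8.63% and 7.62% unthinned) and in 0 of 527 and 0 of 307 endothelial ones, which by 3 counts of the total allows shares of up to 0.569% and 0.977% (exact binomial upper bounds 0.698% and 1.19%). The other 7 of the 10 are identifiers without a symbol, led by ENSGALG00010001729 at 54.1 and 20.6. Among barcodes with 1000 to under 2000 UMIs, *IL8L1* stood at 1.25 (0.974 to 1.64) and 0.948 (0.772 to 1.17), *IL2RA* at 1.80 (0.736 to 5.73) and 0.876 (0.517 to 1.55), and *STAT4* at 1.62 (0.921 to 3.11) and 1.24 (0.959 to 1.62). The differences of these 3 genes were thus smaller there, with intervals that include 1. ENSGALG00010001729 had 31 and 6 UMIs under the limit and 0 above it in this setting. The lower bounds of its ratio were 1.05 and 0.311, so the interval includes 1 in the Normal-labelled library. ENSGALG00010027126 had 134 against 0 and 357 against 1, with lower bounds of 4.75 and 16.8. Without the barcodes called leukocyte or red blood cell, *IL8L1* stood at 10.4 (7.81 to 13.9) and 16.7 (13.9 to 19.9), on 71 and 267 UMIs under the limit. ENSGALG00010001729 then stood at 3.89 (0.987 to 11.2) and 0.504 (0.0123 to 3.03), on 4 and 1 UMIs under the limit, and it was among the 10 leading genes of the red blood cell-like clusters of both libraries. Of the 943 *IL8L1* UMIs under the limit in the HVP-labelled library, 933 lay in a leukocyte-like cluster of 212 barcodes. The class rule left 24 of these barcodes unassigned and called 7 mixed, so the setting without leukocytes did not remove them.

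Of the 10 lowest genes, 9 carry a symbol, *IGLL1* among them. *FMOD*, the collagen-binding proteoglycan fibromodulin, had 58.5 CPM under and 428 CPM above the limit in the HVP-labelled library (0.137, 0.111 to 0.167) and 34.0 and 204 CPM in the Normal-labelled library (0.166, 0.128 to 0.213). *PTN*, the growth factor pleiotrophin, stood at 0.0698 and 0.186, *CCN3*, a matricellular protein, at 0.234 and 0.179, and *FSTL3*, an inhibitor of activins, at 0.169 and 0.239. The others were *OC3*, *ECRG4*, *OSTN* and *FNDC1*, between 0.155 and 0.248. Among barcodes with 1000 to under 2000 UMIs, *FMOD* stood at 6.36 (1.09 to 256) and 0.636 (0.381 to 1.10), *OC3* at 2.22 (1.14 to 4.96) and 1.43 (0.999 to 2.10), and *FSTL3* at 1.06 and 1.81, with intervals that include 1. On these few UMIs, 1 of *FMOD* above the limit in the HVP-labelled library, the direction was lost or turned. *COL1A1*, the main chain of collagen I, had 0.283 and 0.503 of its share above the limit. Among the 20 fibroblast or tenocyte markers with at least 50 UMIs, 19 were at least 2-fold lower in the HVP-labelled library, where 17% of all genes were, and 9 in the Normal-labelled library, where 6.66% were. For mural markers these were 12 of 12 and 2 of 12, with *ACTA2*, smooth muscle actin, at 0.182 and 0.654. A *COL1A1* UMI was nevertheless present after thinning in 36.5% and 38.1% of the barcodes under the limit (54.1% and 51.8% unthinned). In endothelial barcodes under the limit it was present in 20.7% and 17.9% (40.4% and 32.9% unthinned), which gives the background for this gene.

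Of the other lists, antigen presentation genes were higher under the limit, at 2.91 (2.85 to 2.97) and 1.58 (1.55 to 1.61). At least 2-fold higher were 8 of 11 genes in the HVP-labelled library, where 9.89% of all genes were, and 2 of 11 in the Normal-labelled library, where 6.26% were. *BLB2*, a class II major histocompatibility chain, stood at 5.70 (5.47 to 5.93) and 2.28 (2.20 to 2.36), and *B2M*, the light chain of class I molecules, at 1.66 (1.58 to 1.74) and 1.10 (1.06 to 1.15). Within leukocytes the list stood at 1.04 (1.01 to 1.08) and 1.13 (1.09 to 1.17), and within endothelial barcodes at 0.765 (0.737 to 0.793) and 0.632 (0.606 to 0.659). The difference over all barcodes was thus not present at that size within either class. Immediate early and heat shock genes, which dissociation of tissue is known to induce, were lower under the limit as a sum, at 0.560 and 0.708. *FOS* stood at 0.507 and 0.669, and *HSPH1* was the gene of this list that stood above 1, at 1.72 (1.45 to 2.02) and 1.14 (0.964 to 1.34). Cell cycle genes stood at 0.437 (0.343 to 0.548) and 0.503 (0.424 to 0.593), apoptosis genes at 1.25 (1.14 to 1.36) and 1.02 (0.936 to 1.10). The cell cycle sums rest on 76 and 148 UMIs under the limit, 58 and 93 of them of *PCNA*. The intervals of 4 of 9 and 3 of 9 cell cycle genes lay below 1.

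Ribosomal protein genes were lower under the limit, at 6.30% against 9.43% of UMIs in the HVP-labelled library (0.669, 0.664 to 0.673) and 6.63% against 9.20% in the Normal-labelled library (0.720, 0.716 to 0.724). This held within leukocytes, at 0.596 and 0.478, and within endothelial barcodes, at 0.769 and 0.837. Their median log2 ratio over genes was -0.62 and -0.50, against -0.12 and -0.03 over all genes. Shares are of all UMIs, so a larger mitochondrial share under the limit by itself lowers those of the other lists. In endothelial barcodes the mitochondrial share was 23.7% under and 10.4% above the limit in the HVP-labelled library, and 18.5% and 7.61% in the Normal-labelled library. In leukocytes it was 10.9% and 6.87%, and 8.47% and 5.65%. List ratios without mitochondrial UMIs were not computed.

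**Figure D5:**
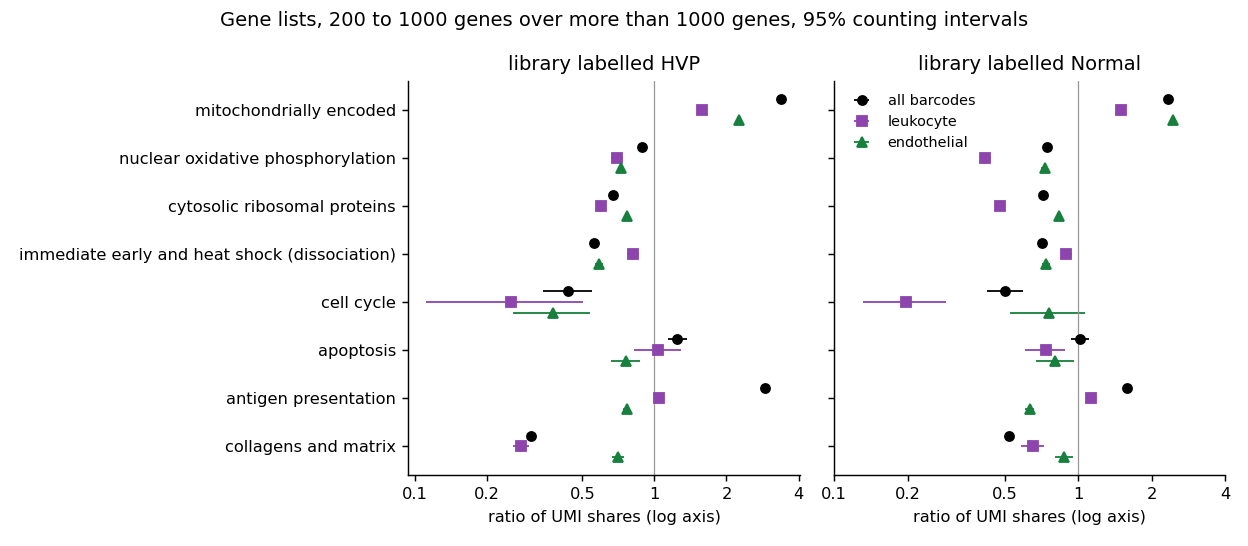
Ratio of the UMI share of each gene list (vertical axis) under the limit over that above it (horizontal axis, log scale) in all, leukocyte, and endothelial barcodes of each library, with 95% counting intervals. The mitochondrial list stands to the right of 1 in all 3, at 3.39, 1.58 and 2.27 in the HVP-labelled library and 2.34, 1.50 and 2.43 in the Normal-labelled library, and the ribosomal proteins stand to the left.

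Between leukocytes under and above the limit, 60 of 2967 genes were at least 2-fold higher (2.02%) and 67 lower (2.26%) in both libraries. *HDC*, the enzyme that makes histamine in mast cells and basophils, had 303 CPM under and 45.6 CPM above the limit in the HVP-labelled library (6.64, 4.26 to 10.7) and 177 and 54.2 CPM in the Normal-labelled library (3.27, 2.17 to 4.94). Few barcodes carried it. Over all barcodes under the limit, of any class, 15 and 10 held its 243 and 86 UMIs. *RBPJ*, the transcription factor of Notch signalling, stood at 2.56 (2.21 to 2.96) and 2.84 (2.34 to 3.45), *PARVB*, an adhesion protein, at 3.20 and 3.41, and *SH3PXD2B*, a podosome adaptor, at 2.60 and 3.20. Among the lowest were *IGLL1* and the plasma cell genes *MZB1* and *JCHAIN*, at 0.0178 and 0.00948, 0 and 0.00772, and 0.0654 and 0.148. For *MZB1*, 0 of its UMIs were under and 57 above the limit in the HVP-labelled library, and 1 and 384 in the Normal-labelled library.

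Between endothelial barcodes under and above the limit, 28 of 7630 genes were at least 2-fold higher (0.367%) and 262 lower (3.43%) in both libraries. Mitochondrial genes supplied 12 of the 28. Their larger share of UMIs under the limit by itself lowers the shares of the other genes. *ERBB4*, a receptor for neuregulins, led the ranking, with 335 CPM under and 62.7 CPM above the limit in the HVP-labelled library (5.35, 4.49 to 6.37) and 233 and 36.7 CPM in the Normal-labelled library (6.34, 4.84 to 8.28). The 5 lowest genes by the same ranking were at 0.374 or less in both libraries. *FABP4*, a fatty acid carrier of capillary endothelium and fat cells, had 3469 CPM under and 14470.1 CPM above the limit in the HVP-labelled library (0.240, 0.230 to 0.250) and 8050 and 25344 CPM in the Normal-labelled library (0.318, 0.307 to 0.329). *FABP5*, of the same family, stood at 0.285 and 0.374, *IGFBP7*, a secreted protein of vessels, at 0.181 and 0.328, *HGF*, the hepatocyte growth factor, at 0.176 and 0.273, and *NMNAT1*, an enzyme of NAD synthesis, at 0.357 and 0.344.

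Clustering of the barcodes under the limit on their own gave 6 clusters in the HVP-labelled library and 9 in the Normal-labelled library. These clusters were formed from the same counts and describe how the barcodes group. The largest of the HVP-labelled library, 597 barcodes with a median mitochondrial share of 23.4%, stayed unnamed because none of its 10 leading genes was an endothelial marker and its median depth of 1310 UMIs was low, although 477 of its barcodes were called endothelial. The others were 2 leukocyte-like clusters of 212 and 56 barcodes, a fibroblast- or tenocyte-like cluster of 200, a mural-like cluster of 152 and a red blood cell-like cluster of 23. *C1QB*, *TLR4* and *SPI1* stood among the leading genes of the first leukocyte-like cluster, and *TCF7*, *BCL11B* and *ICOS*, genes of T cells, among those of the second. The second was not led by T cell genes alone. It held 238 of the 243 *HDC* UMIs under the limit, and *HDC* was also among its leading genes. *GKN2* ranked 1 there, on 58 UMIs that all lay in 1 barcode. In the fibroblast- or tenocyte-like cluster 166 barcodes were unassigned, 16 were called melanocyte and 12 fibroblast or tenocyte. It thus held all melanocyte barcodes under the limit in that library. *GPNMB* and *CRPL1* were among its leading genes, and also among those of the melanocyte-like cluster of the Normal-labelled library. In the mural-like cluster 66 barcodes were unassigned, 48 were called endothelial, 24 mural and 5 mesothelial. ENSGALG00010024137, among its leading genes, also led the mesothelial-like cluster of the Normal-labelled library.

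The library labelled Normal held an endothelial-like cluster of 378 barcodes (median mitochondrial share 17.4%), a fibroblast- or tenocyte-like one of 315, leukocyte-like ones of 191 and 170, a mural-like one of 151, and mesothelial-, red blood cell- and melanocyte-like ones of 23, 19 and 18. A cluster of 232 barcodes, 141 of them called endothelial, stayed unnamed, because more markers of another class than of its own stood among its 10 leading genes. *AvBD1*, the fast muscle genes *MYL1* and *TNNC2* and the lymphatic endothelial marker *MMRN1* were among these leading genes. All 67 *AvBD1* UMIs came from 1 barcode, and 4 of the 232 barcodes were called muscle. The endothelial-like cluster held 165 barcodes called endothelial and 210 unassigned, and 0 of its 10 leading genes were endothelial markers. It was named because its median depth of 1162 UMIs was above 1/3 of that library's 3280. *ERBB4* and *MAP3K15* were among its leading genes and among those of the unnamed cluster of the HVP-labelled library. The median mitochondrial share of the unnamed cluster of 232 barcodes was 6.55%.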

How the data were processed

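The authors counted UMIs with Cell Ranger 7.1.0 on GRCg7b with mitochondrial genes added by hand, and the deposited counts per gene and barcode were used without normalization. STAR is also named in the submitters' processing notes. Depth was 36100448 UMIs in the HVP-labelled library and 26865572 in the Normal-labelled library.

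UMIs were summed over barcodes and divided by their total (CPM), and log2 values are of ratios of these shares. Members, markers and gene lists were chosen with earlier results of these data known. Of 206 markers, 164 were in the files by symbol. The named genes are all markers and list genes, the 10 highest and 10 lowest genes by the bound of the ratio's interval nearest 1 in the library where it is nearer 1, the 5 highest and 5 lowest within leukocytes and endothelial cells by the same ranking, and the 10 leading genes of each cluster. Granule genes and the spread of single genes over barcodes were looked up after values were seen. Symbols of S6 kinases were left out of the ribosomal proteins. Barcodes under the limit were clustered with Seurat 5.3.0 in R 4.3.3 (2000 variable genes, 20 components, resolution 0.2). A cluster was named for the class with the largest share of its markers at 2 times or more their level in the other clusters and in 10% or more of the barcodes. It stayed unnamed with under 3 such markers, with more markers of another class among its 10 leading genes, or with a median depth divided by the library's of under 1/3 and no own marker among them. No doublet caller was run. Intervals came from scipy 1.17.1, and class calls and ratios were tested on simulated data. Simulated barcodes of a class were drawn from the summed counts of barcodes above the limit that the same rule had called. Their recovery was thus partly set in advance and does not show that the calls are right. Positions are from RefSeq of GRCg7b by symbol. No sequence is shown because none was used here.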

Additional observations from a re-analysis of the deposited data

Results flagged for a closer look

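Among the named genes with at least 50 UMIs in each library, there were 5 for which the counting intervals of the ratio under over above the limit lay on opposite sides of 1 in the libraries, and the difference between the libraries was not tested. *PLVAP*, a diaphragm protein of fenestrated capillaries, stood at 2.06 in the HVP-labelled library and at 0.863 in the Normal-labelled library. The melanosome gene *PMEL* stood at 0.344 and 1.40, on 4 and 86 UMIs under the limit. Fast muscle troponins *TNNT3* and *TNNC2* stood at 2.13 and 0.496, and at 3.86 and 0.580. Above the limit in the Normal-labelled library, 10 barcodes held 92.7% and 97.2% of their UMIs. Under the limit in the HVP-labelled library, *TNNT3* had 23 UMIs, 7 of them in 1 barcode. *TNNC2* had 14 UMIs there, 12 of them in 1 barcode, and 1 barcode was called muscle. *MYL1* and *TNNI2*, also of fast muscle, had under 50 UMIs in the HVP-labelled library and stood at 34.9 and 0.530, and at 73.4 and 0.526. *TAPBP*, the chaperone tapasin, stood at 1.18 and 0.822.

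The barcodes with fewer than 200 genes, used in no comparison, were 51 and 20. Mitochondrial genes made up 83.9% and 87.3% of their UMIs.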

How the results depend on the processing

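With 1 library per group no replicate could be left out, and nothing has a replicate check. No paired analysis was possible because each group is 1 library and the labels carry no replicate numbers. All values are for the libraries labelled HVP and Normal in this order. The mitochondrial share of 18.0% and 12.6% was 19.8% and 13.2% over all 37 genes with consecutive identifiers around the MT- genes, 17.3% and 12.4% from 300 genes up, 20.7% and 13.7% with no lower limit, 19.3% and 14.2% up to 900 genes, 15.1% and 8.50% as the median, 16.9% and 11.8% among barcodes with 1000 to under 2000 UMIs, and 19.9% and 13.5% without leukocytes and red blood cells. It stayed above that of the larger barcodes in each, which for the window of 1000 to under 2000 UMIs is partly set by the selection. The leukocyte share became 15.3% in the HVP-labelled library when thinned to 500 UMIs. In the Normal-labelled library it was 9.02% at 5 times the library's share and 21.6% without *IGLL1*, *JCHAIN*, *MZB1*, *ARHGDIB* and *EXFABP*. The endothelial share was 30.6% in the HVP-labelled library when thinned, and 21.9% and 4.41% at 5 times the library's share. Red blood cell shares under the limit stayed within their intervals in the settings tried, while above it at least 3 globin UMIs gave 0.170% and 0.403% in place of 0.0341% and 0.0549%. Genes at least 2-fold higher numbered 1247 with at least 1 UMI per gene, 27 among barcodes with 1000 to under 2000 UMIs and 272 without leukocytes and red blood cells, and genes lower 4237, 5 and 423. These are of 22038, 4053 and 12568 genes, against 12807 in the main setting. With at least 1 UMI per gene, a gene with no UMI under the limit in either library counts as lower. With the median gene set to a ratio of 1, genes higher and lower were 655 and 490 of 12807, and with totals without mitochondrial genes 741 and 395. The settings without leukocytes and red blood cells, the reduced marker list, the limit of 3 globin UMIs and the omission of the barcode richest in globin were chosen after seeing the data.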
